A study of Capra hircus with 30 samples.

Results

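The genes examined here were the receptors for the pituitary gonadotropins and the proteins of steroid synthesis in goat granulosa cells. They were FSHR, LHCGR, CYP19A1, CYP11A1, CYP17A1, STAR, HSD17B1, NR5A1 and NR5A2. The 9 genes were chosen by symbol with no rule on their values, though earlier results of these data were known. All 9 were found among the 20125 features of the deposited table through their NCBI gene numbers. CYP11A1 and CYP17A1 were matched through a synonym in the gene list that RefSeq gives for goat (ARS1.2).

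Follicle-stimulating hormone and luteinizing hormone reach the ovary from the pituitary and bind the receptors encoded by FSHR and LHCGR, which raise cyclic AMP inside the cell. STAR moves cholesterol to the inner mitochondrial membrane, CYP11A1 cuts its side chain to give pregnenolone, and CYP17A1 leads on to androgens, a step placed mainly in theca cells. Granulosa cells convert the androgens to oestrogens with CYP19A1 (aromatase) and HSD17B1, and the nuclear receptors NR5A1 (SF-1) and NR5A2 (LRH-1) bind the promoters of several of these genes.

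The 30 libraries came from ovarian granulosa cells of Ji'ning grey goats, with no treatment named in the labels and no age given in the sources used here. They cross high and low fertility, classed by litter size, with large, medium and small follicles, 5 libraries a group. The high fertility groups were HLG, HMG and HSG (large, medium, small), the low fertility groups LLG, LMG and LSG, and each library carries the number its label gives (5, 7, 8, 9 or 10). The labels call the series single-cell, whereas the study's methods describe cells collected from several goats of a class and divided into samples by follicle size. The methods give each sample only a small number of cells and do not say which animals they came from, so the p-values measure the spread between these libraries, which may be technical.

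Values are FPKM, fragment numbers divided by gene length and by library size, as the authors deposited them. They summed to between 33640 and 82952 in a library, and between 301 and 9256 features were above 0. A median of 2210 features was above 0 in the 10 libraries of large follicles (301 to 7554), 6372 in medium (1521 to 9256) and 5131 in small (719 to 8178). Read totals were not used here, so no counting intervals are given. The median feature of the table was above 0 in only 5 of the 30 libraries. A value of 0 is therefore given as listed at 0, and levels are given library by library. In such bulk values, fewer cells of a type and less RNA per cell cannot be told apart.

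The 9 genes were listed at 0 in most libraries. Of their 270 values, 37 were above 0 (13.7%), compared with 23.8% of the values of all features. Only 17 of the 37 reached 0.5 FPKM and 13 reached 1 FPKM, while 13 were under 0.1 FPKM. The gene above 0 in the most libraries was CYP19A1, in 10 of 30, followed by STAR in 7, NR5A2 in 5 and LHCGR in 4. CYP11A1, HSD17B1 and NR5A1 were each above 0 in 3 libraries, and FSHR and CYP17A1 in 1 each. Of the 54 medians of a gene in a group of 5 libraries, 53 were at 0. The exception was CYP19A1 in HSG, at 0.04 FPKM.

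**Figure D1:**
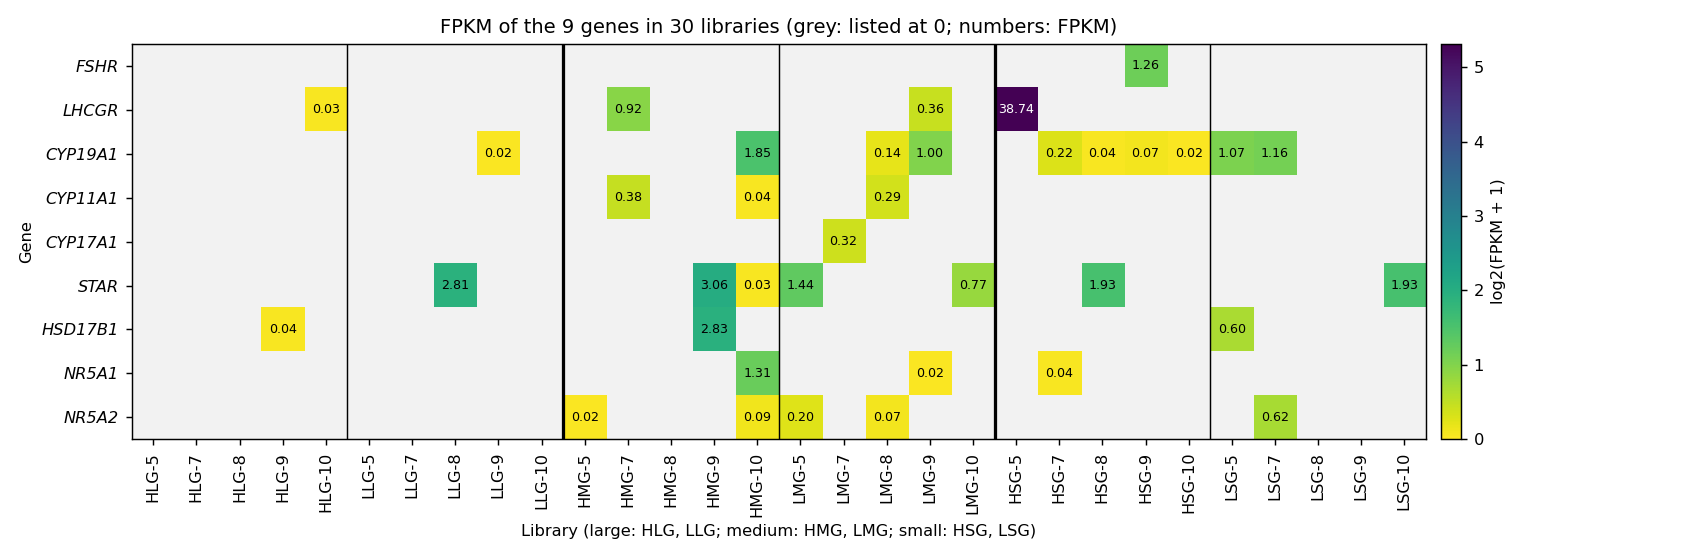
FPKM of the 9 genes (rows) in the 30 libraries (columns, ordered by group). Colour gives log2(FPKM + 1), the printed number is FPKM and grey marks a value listed at 0. The 37 values above 0 are scattered over 21 libraries, and the highest is LHCGR in HSG-5 at 38.74.

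The gonadotropin receptors were examined first. FSHR, the receptor for follicle-stimulating hormone and a defining gene of granulosa cells (NCBI gene 100861291), was above 0 in HSG-9 alone, at 1.26 FPKM. In that library 68.0% of the features above 0 had a lower value. LHCGR, the receptor for luteinizing hormone, which granulosa cells gain as follicles approach ovulation (NCBI gene 100860843), was above 0 in 4 libraries. It stood at 0.03 FPKM in HLG-10, 0.92 in HMG-7, 0.36 in LMG-9 and 38.74 in HSG-5. The highest LHCGR value was thus in a single library of small follicles, HSG-5, which the study's list of mapped libraries does not name. In large follicles the gene was listed at 0 in 9 of 10 libraries, and only 14.0% of the values of all features were above 0 there. With 4 libraries above 0, these counts do not give a trend with size.

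The LHCGR value of HSG-5 was the highest of all values of the 9 genes, and 88.2% of the 719 features above 0 in that library had a lower value. HSG-5 had the fewest features above 0 among the small follicle libraries and the lowest FPKM sum of all. FSHR and LHCGR are neighbours in the RefSeq annotation of ARS1.2, with 0 annotated genes between them. They were never above 0 in the same library. With FSHR above 0 in 1 library and LHCGR in 4, this says nothing of whether they exclude each other.

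CYP19A1, the aromatase that makes oestrogens from androgens (NCBI gene 100861413), was above 0 in 1 library of large, 3 of medium and 6 of small follicles. In large follicles the single value was 0.02 FPKM in LLG-9. In medium follicles it stood at 1.85 FPKM in HMG-10, 0.14 in LMG-8 and 1.0 in LMG-9. In small follicles it stood at 0.22 FPKM in HSG-7, 0.04 in HSG-8, 0.07 in HSG-9, 0.02 in HSG-10, 1.07 in LSG-5 and 1.16 in LSG-7. The small follicle libraries thus made up most of its libraries, but 4 of their 6 values were under 0.5 FPKM, and the highest value was in a medium follicle library.

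The difference in CYP19A1 between large and small follicles did not pass the test, and could not have passed. Even the smallest p that its 7 libraries of these sizes can give (0.0031, exact test) would have failed after adjustment. Large follicle libraries also had fewer features above 0, with a median of 2210 against 5131 in small ones. The part of this in the difference was not tested. Fisher's exact test on 1 of 10 against 6 of 10 libraries gave p = 0.0573 (adjusted p = 1 over all 20125 features). With the limit of detection at 0.5 FPKM in place of 0, the counts were 0 and 2 of 10 (exact p = 0.474). The unadjusted p fell to 0.0108 when LLG-9, the only large follicle library with the gene, was left out, and the lowest adjusted p over the libraries left out in turn was 0.676. Large against medium follicles gave an exact p of 0.582, and medium against small 0.370.

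HSD17B1, which reduces oestrone to oestradiol (NCBI gene 102182909), was above 0 in 1 library of each size. It stood at 0.04 FPKM in HLG-9, 2.83 in HMG-9 and 0.60 in LSG-5. CYP19A1 was also above 0 in the last of these libraries and was listed at 0 in the others. Both enzymes of oestrogen formation were therefore above 0 together in LSG-5 only.

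STAR, which brings cholesterol into mitochondria (NCBI gene 102187294), was above 0 in 1 library of large, 4 of medium and 2 of small follicles. Its values were 2.81 FPKM in LLG-8, 3.06 in HMG-9, 0.03 in HMG-10, 1.44 in LMG-5, 0.77 in LMG-10 and 1.93 in both HSG-8 and LSG-10. In HMG-9, 89.5% of the features above 0 were lower than STAR. Single libraries of all 3 sizes thus held STAR at 1.93 FPKM or more while the other libraries of the same group were mostly listed at 0.

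STAR was the only one of the 9 genes above 0.5 FPKM in at least 5 libraries, and so the only one that entered the test on levels. On the log2(FPKM + 1) scale, which understates changes of low genes, the difference of large minus small follicles was -0.12 ± 0.29 (SE, limma, 10 libraries each, adjusted p = 0.907). Large minus medium follicles gave -0.22 ± 0.29 (limma, adjusted p = 0.755) and medium minus small 0.11 ± 0.29 (limma, adjusted p = 0.998). These differences were smaller than their standard errors, and the medians over the 6058 features tested were -0.19, -0.25 and 0.05 in the same comparisons. When the count of features above 0 entered the fit as a covariate, all 3 changed sign, to 0.21, 0.24 and -0.03, and no call was made. Without HMG-9, the library with the highest STAR value, medium minus small was -0.09.

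CYP11A1, the side-chain cleavage enzyme that starts steroid synthesis (NCBI gene 102173131), was above 0 in 3 libraries, all of medium follicles. It stood at 0.38 FPKM in HMG-7, 0.04 in HMG-10 and 0.29 in LMG-8, so that no value reached 0.5 FPKM. Over all features, 32.6% of the values were above 0 in medium follicles, 14.0% in large and 24.7% in small ones. Fisher's exact test on 3 of 10 against 0 of 10 libraries gave p = 0.211 against large (adjusted p = 0.832) and p = 0.211 against small follicles (adjusted p = 1). No smaller p is possible with 3 libraries, so CYP11A1 could not have passed. CYP17A1, the enzyme of androgen synthesis known from theca cells (NCBI gene 102182663), was above 0 in LMG-7 alone, at 0.32 FPKM. STAR and CYP11A1, which act one after the other on cholesterol, were above 0 together in HMG-10 only, at 0.03 and 0.04 FPKM.

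The nuclear receptors NR5A1 (NCBI gene 102186219) and NR5A2 (NCBI gene 102174500) were listed at 0 in all 10 libraries of large follicles. In those libraries 14.0% of the values of all features were above 0, and the median feature was above 0 in 1 of the 10. Zeros in all of them are therefore not particular to these receptors. NR5A1 stood at 1.31 FPKM in HMG-10, 0.02 in LMG-9 and 0.04 in HSG-7. NR5A2, known from granulosa and luteal cells, stood at 0.02 FPKM in HMG-5, 0.09 in HMG-10, 0.20 in LMG-5, 0.07 in LMG-8 and 0.62 in LSG-7. NR5A2 was thus above 0 in 4 of 10 libraries of medium follicles and 1 of 10 of small ones, at low values. Its difference between large and medium follicles did not pass Fisher's exact test (0 against 4 of 10 libraries, p = 0.0867, adjusted p = 0.633). That is the smallest p that 4 libraries can give here, so NR5A2 could not have passed.

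CYP19A1 was also above 0 in the 3 libraries with NR5A1, which had 8117, 9256 and 5078 features above 0. Of the 5 libraries with NR5A2, CYP19A1 was above 0 in 3, namely HMG-10, LMG-8 and LSG-7. These are counts of shared libraries among few, in which many other features were above 0 too.

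**Figure D2:**
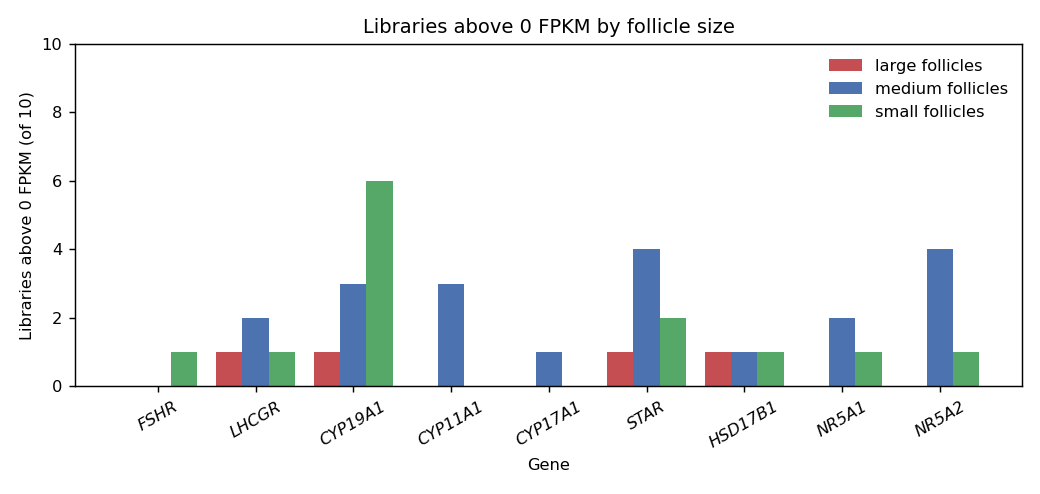
Number of libraries above 0 FPKM, of 10, for each of the 9 genes in large, medium and small follicles. CYP19A1 goes from 1 to 3 to 6 libraries with decreasing size, whereas STAR (4), NR5A2 (4) and CYP11A1 (3) have their most libraries in medium follicles. All features also had their highest share of values above 0 in medium follicles (14.0% in large, 32.6% in medium and 24.7% in small).

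The genes were then compared over follicle sizes as a group. Large follicles had 4 of 90 values above 0 (4.44%), medium 20 of 90 (22.2%) and small 13 of 90 (14.4%). The values of all features followed the same order, with 14.0%, 32.6% and 24.7% above 0. No gene of the 9 was called by Fisher's exact test in any pair of sizes. The background was 0 of 20125 features (0%) in each pair, where 335 features had a p under 0.05 before adjustment (large against small), 1241 (large against medium) and 197 (medium against small). These tests could not have called a gene of the 9. The smallest exact p that 10 libraries against 10 can give is 1.08e-05, whereas a feature alone would need 2.48e-06 to pass over 20125 features. With the libraries each gene had above 0, the smallest possible p in a pair of sizes was 0.000119 for CYP19A1, 0.0108 for STAR, 0.0325 for NR5A2 and 0.211 or more for the other 6 genes (exact test). Had each gene had its smallest possible p, with the other features as measured, the lowest adjusted p would have been 0.527. The absence of a call by this test therefore says nothing of whether sizes differ.

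By limma, STAR was not called for any pair of sizes. The background was 0 of 6058 features (0%) for large against small, 0 of 6058 (0%) for large against medium and 1 of 6058 (0.0165%) for medium against small, and an unadjusted p under 0.05 was found for 510, 698 and 311 features. When the filter was dropped and all 9 genes were fitted, 0 were called and 0 had an unadjusted p under 0.05. The lowest limma result was that of CYP11A1 for medium follicles against each other size (adjusted p = 0.646 against large and 0.696 against small). Most values of the 9 genes in this fit were 0, so the absence of a call says little of whether sizes differ.

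How many of the 9 genes a library held varied with how many features it held at all. In 9 libraries none of the 9 was above 0, and these had 301 to 5999 features above 0, with a median of 1521. Of these 9 libraries, 6 were of large, 1 of medium and 2 of small follicles. The 11 libraries with at least 2 of the genes had 4082 to 9256 features above 0, with a median of 6328. HMG-10 held the most, with 5 of the 9 (CYP19A1, CYP11A1, STAR, NR5A1 and NR5A2) among 8117 features. The part of this difference between libraries in the comparison of sizes was not tested for the single genes other than STAR.

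**Figure D3:**
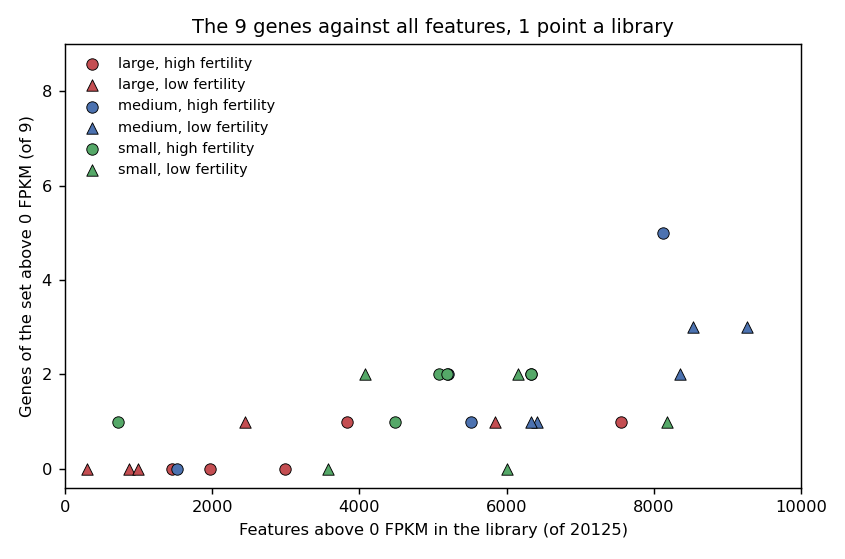
Number of the 9 genes above 0 FPKM (vertical) against the number of all features above 0 (horizontal), with 1 point a library, colour for follicle size and shape for fertility. The 11 libraries with at least 2 of the genes lie at 4082 features or more, and HMG-10 holds 5.

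High and low fertility were compared next, the contrast for which the series was made. The 9 genes had 20 of 135 values above 0 in high fertility (14.8%) and 17 of 135 in low fertility (12.6%), against 22.0% and 25.6% of the values of all features. By group, 2 of 45 values were above 0 in HLG, 2 in LLG, 10 in HMG, 10 in LMG, 8 in HSG and 5 in LSG. The shares over all features were 17.7%, 10.4%, 26.5%, 38.6%, 21.7% and 27.8% in the same order, so equal counts had unlike backgrounds. CYP19A1 was above 0 in 5 of 15 libraries of each class, STAR in 3 of high and 4 of low, NR5A2 in 2 and 3, and LHCGR in 3 and 1. The counts of the classes thus differed by at most 2 libraries for any of the 9 genes.

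No gene of the 9 passed Fisher's exact test between the fertility classes (adjusted p = 1 for each), but here too none could have passed, with an adjusted p of 1 even at each gene's smallest possible p. The background was 0 of 20125 features (0%), and 171 of them had a p under 0.05 before adjustment. For STAR, high minus low fertility averaged over sizes was -0.13 ± 0.23 on the log2(FPKM + 1) scale (SE, limma, 15 libraries each, adjusted p = 0.977). Within large follicles it was -0.39 ± 0.40, within medium -0.01 ± 0.40 and within small 0.00 ± 0.40 (SE, limma, 5 libraries each, adjusted p = 1 for each). The difference within large follicles rests on LLG-8, and STAR was listed at 0 in the other 9 libraries of that size. The fertility by size interaction of STAR had an adjusted p of 0.964 by limma. In these contrasts 0 of 6058 features (0%) were called by limma, and between 239 and 387 had an unadjusted p under 0.05.

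The other genes of the pathway were taken from lists of 66 genes, of which 45 were in the table and 13 passed the filter. None of the 13 was called by limma for large against small, large against medium, medium against small or high against low fertility, and 1, 1, 1 and 0 of them had an unadjusted p under 0.05. Fisher's exact test called no feature of the table in these comparisons. On the log2(FPKM + 1) scale, the median difference of the 13 genes was -0.36 for large minus small (2 higher, 11 lower). It was -0.16 for large minus medium (4 higher, 9 lower) and -0.24 for medium minus small (5 higher, 8 lower). The medians over all 6058 features were -0.19, -0.25 and 0.05 in the same order. For high minus low fertility the median of the 13 was 0.07 (7 higher, 6 lower) and that of all features -0.01. The counts of higher and lower genes were not set against those of all features. The median of the pathway genes and that of all features had opposite signs for medium minus small and for fertility.

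Upstream of the steroid enzymes, SOAT1, which esterifies cholesterol, was above 0 in 11 libraries (0.02 to 2.54 FPKM) and the sterol carrier STARD4 in 10 (0.07 to 4.21). The cholesterol synthesis gene HMGCS1 was above 0 in 13 libraries, at up to 4.37 FPKM. FDX1, the ferredoxin that passes electrons to CYP11A1, was above 0 in 7 libraries, at 1.01 to 7.76 FPKM. None of its libraries came from large follicles, 4 came from medium and 3 from small ones, and by fertility 1 was high and 6 were low. Of the values of all features, 14.0%, 32.6% and 24.7% were above 0 in these sizes, and 22.0% and 25.6% in these classes. FDX1 was not called by limma (adjusted p = 0.607 for large against small, 0.428 for large against medium and 0.952 for fertility averaged over sizes). Its 4 medium follicle libraries were all of LMG, where 38.6% of the values of all features were above 0, against 26.5% in HMG. Within medium follicles, high minus low fertility of FDX1 was -1.35 ± 0.46 on the log2(FPKM + 1) scale (SE, limma, adjusted p = 0.651). FDXR, the partner of FDX1, was above 0 in LMG-9 alone, at 0.03 FPKM.

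HSD17B11, a short-chain dehydrogenase of lipid droplets, was above 0 in 26 libraries (0.03 to 24.63 FPKM), and HSD17B12, which acts mainly in fatty acid elongation, in 17 (0.02 to 6.38). Among the regulators, CTNNB1 (β-catenin) was above 0 in 22 libraries (0.03 to 3.85 FPKM) and CREB1, the factor that answers to cyclic AMP, in 21 (0.10 to 5.85). The regulator list had 33.6% of its values above 0, compared with 13.7% for the 9 genes, 21.5% for cholesterol synthesis, 20.0% for cholesterol uptake and transfer, 19.2% for other steroid enzymes and 13.3% for electron donors.

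The gonadotropin subunits, which the pituitary and not the ovary makes, were examined with them. FSHB was above 0 in HMG-5 alone, at 0.18 FPKM, and LHB in HLG-7 alone, at 23.98 FPKM, so that 3.33% of the values of this list were above 0. A value above 0 in a single library, high or low, thus also occurred for genes that granulosa cells are not known to use. NR0B1, a nuclear receptor that represses NR5A1 and that was picked out after its values were seen, was above 0 in 6 libraries and stood at 77.46 FPKM in HSG-5, the library with the highest LHCGR.

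**Figure D4:**
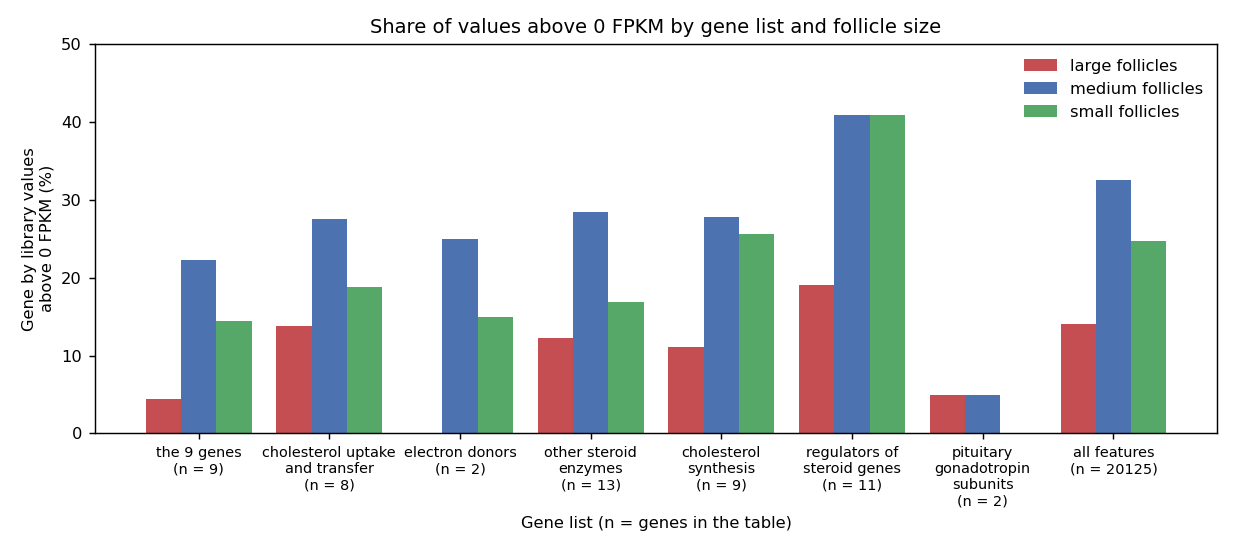
Percent of values above 0 FPKM (genes of a list times 10 libraries of a size) for the 9 genes, the other pathway lists and all features. All features give 14.0% in large, 32.6% in medium and 24.7% in small follicles, and the 9 genes are lower at each size, at 4.44%, 22.2% and 14.4%.

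The labelled cell type was checked with marker genes. Of 10 granulosa cell markers 9 were in the table and each was above 0 in at least 1 library. The gap junction gene GJA1 was above 0 in 18 libraries, CDH2 (N-cadherin) in 16 and INHBA, a subunit of inhibin and activin, in 14. The defining genes INHA, AMH and FSHR were above 0 in only 2, 1 and 1 libraries, and AMH stood at 0.03 FPKM. The summed FPKM of the granulosa markers was 0 to 34.32 in large, 0 to 6.84 in medium and 0.38 to 26.84 in small follicles. INHBB was above 0 in 10 libraries and FST, which binds activin, in 8, at up to 21.56 FPKM in HLG-8. Over the list, 29.6% of the values were above 0, against 23.8% for all features. The lists of other cells had 46.7% (luteal), 27.3% (theca), 24.2% (endothelial), 16.7% (erythroid), 14.2% (immune) and 8.67% (oocyte). The share of the granulosa list was thus close to that of the theca list and below that of the luteal list. The luteal share rests on 2 genes, STAR and PTGFR, of which PTGFR was above 0 in 21 libraries. The lists also hold some of the 9 genes, namely FSHR and CYP19A1 (granulosa), CYP17A1 (theca) and STAR (luteal). INHA, AMH and FSHR were thus listed at 0 in most libraries, while the list as a whole was not below all features.

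Markers of other cells were summed in the same way. Of 6 theca markers 5 were in the table, their sum was at most 1.52 FPKM, and CYP17A1 was above 0 in 1 library while PTCH1, a receptor of hedgehog signals, was in 18. Of 8 oocyte markers 5 were in the table, each above 0 in at most 6 libraries, with a sum of 0 to 10.16 FPKM, and in medium follicles their highest sum (6.93) was close to that of the granulosa markers (6.84). All 4 immune and all 4 endothelial markers were in the table, with sums of at most 4.28 and 6.39 FPKM. The luteal markers in the table, STAR and PTGFR, a prostaglandin receptor of luteal cells, summed to at most 15.05 FPKM in large, 3.20 in medium and 8.17 in small follicles. PTGFR was above 0 in 21 libraries, with its highest value of 15.05 FPKM in HLG-8, and the erythroid gene ALAS2 was above 0 in 5. The part of other cells in the values of the 9 genes was not tested.

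CYP19A1 was the only gene of the 9 above 0 in at least 8 libraries, and so the only one whose pattern was set against other features. Of 6045 features compared, the named genes most like it over the 30 libraries were EFNB1, an ephrin ligand (Spearman's rho = 0.73), and ANTXR2, a membrane receptor (rho = 0.68). EFNB1 was above 0 in 9 libraries and ANTXR2 in 8, each shared with CYP19A1 in 7, and neither exceeded 1.93 FPKM. The rho rests mostly on these shared libraries, and is given as a description.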

How the data were processed

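Granulosa cell RNA of 30 libraries was analysed. Per the study's methods, total RNA was depleted of rRNA, alignments were kept when unique and with few mismatches, duplicates were removed with picard, and the authors deposited FPKM values made with Cufflinks 2.2.1, written with 2 decimals. The aligner and the genome build are not given in the sources used here. An Ensembl annotation is named in the methods, but 17946 of the 20125 features have NCBI gene numbers. Gene names came from the RefSeq table of ARS1.2, and no coordinates are printed. Antisense or overlapping transcripts cannot be told apart, since strand use is not stated. The study lists read totals for all but 4 libraries, which were not used here.

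Groups came from the labels. The members and gene lists were chosen with earlier results of these data known. Features above 0.5 FPKM in at least 5 libraries (6058) were tested on log2(FPKM + 1) with limma 3.58.1 (R 4.3.3), with 6 group means in 1 fit and a robust, trended prior variance. Libraries above 0 were compared by two-sided Fisher's exact test over all 20125 features (scipy 1.17.1, Python 3.11.15). P-values were adjusted per contrast by the Benjamini-Hochberg method, with a threshold of 0.05. Both steps were run on simulated data with large differences, Gaussian values for limma and random detection for Fisher's exact test. The simulations did not copy the share of values at 0 in this table. They therefore check the code and not what these tests can find here. Named genes were the 9 members, the pathway genes called in a contrast, the 2 of each list above 0 in the most libraries, and the 2 features most like a member above 0 in at least 8 libraries. Listed genes that were not matched in the table, such as FOXL2, INSL3 and HSD3B1, were not analysed here, and 1 gene that the naming rule picked is not reported here. Of 435 pairs of libraries, 0 had identical values (highest Spearman correlation 0.329). Alternatives were pseudocounts, filters, scaling, weights, covariates, detection limits and leaving out libraries.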

Additional observations from a re-analysis of the deposited data

Results flagged for a closer look

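Within the groups of 5 libraries, 1 library stood apart from the other 4 in 23 of 66 sets searched, by the ratio of its gap to the range of the group (above 0.71). Chance gives about 1 in 20 such sets for measurements without ties, and in 19 of the 23 the other 4 libraries were listed at 0, so that any value above 0 stands apart. Another 27 of the 54 gene sets were at 0 in all 5 libraries.

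For the receptors these were FSHR at 1.26 FPKM in HSG-9 and LHCGR at 0.03 in HLG-10, 0.92 in HMG-7, 0.36 in LMG-9 and 38.74 in HSG-5. For oestrogen formation they were CYP19A1 at 0.02 FPKM in LLG-9, 1.85 in HMG-10 and 1.0 in LMG-9, and HSD17B1 at 0.04 in HLG-9, 2.83 in HMG-9 and 0.60 in LSG-5. For the steps from cholesterol they were STAR at 2.81 FPKM in LLG-8, 3.06 in HMG-9, 1.93 in HSG-8 and 1.93 in LSG-10, CYP11A1 at 0.38 in HMG-7 and 0.29 in LMG-8, and CYP17A1 at 0.32 in LMG-7. For the nuclear receptors they were NR5A1 at 1.31 FPKM in HMG-10, 0.02 in LMG-9 and 0.04 in HSG-7, and NR5A2 at 0.09 in HMG-10 and 0.62 in LSG-7.

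HSG-5, which held LHCGR at 38.74 FPKM, had 719 features above 0, and INHBA stood at 26.84 FPKM there, the highest of its 14 libraries. HSG-5 is also 1 of 4 libraries, with HLG-5, LLG-5 and LLG-7, that the study's list of mapped libraries does not name. Without those 4, the 9 genes had 36 of 234 values above 0 (15.4%), compared with 26.7% of the values of all features, and by size 6.35% in large, 22.2% in medium and 14.8% in small follicles.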

How the results depend on the processing

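By limma, the count of called members was 0 in each contrast and under each alternative run. With the main filter STAR was the only member tested, so for the others this 0 was fixed in advance. When the filter was dropped all 9 were fitted, but most of their values were 0. For members other than STAR, the limma count therefore says little about stability. The count of called pathway genes was 0 for the 3 pairs of sizes and for fertility averaged over sizes, where it was recomputed. Fisher's exact test also gave 0 called members, but with so few libraries above 0 it could not have called a gene of the 9, so its count says nothing about stability. The direction of STAR changed with the processing. When the count of features above 0 entered the fit its log2 difference was 0.21 for large minus small, 0.24 for large minus medium, -0.027 for medium minus small and 0.20 for fertility in medium follicles, and with sample quality weights the last was 0.065. When each library was left out in turn, these ranged from -0.31 to 0.038, from -0.42 to -0.023, from -0.094 to 0.26 and from -0.41 to 0.21, in the same order. The adjusted p of STAR for the 3 pairs of sizes was at least 0.341 over all alternatives (limma). With the limit of detection at 1 FPKM, LHCGR in medium minus small follicles was -10.0 percentage points, and at 0.5 FPKM so was NR5A2. The causes were not tested beyond these constructions. With mean FPKM of at least 1 as the filter, STAR was not tested.

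The labels give the groups the same replicate numbers, but samples shared only a number. Of 75 same-numbered pairs, deviations correlated between -0.03 and 0.12 (median 0.01), 1 pair exceeded 0.1, and 7 of 30 libraries had their best match at their own number. With the replicate block, 0 members were called, STAR in large minus small follicles was -0.12 (adjusted p = 0.908, limma), and the features called in medium against small went from 1 to 0.

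Read totals were not used here, and 8 of the 9 genes had too few values above 0.5 FPKM to be tested on levels.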
